A study of Rattus norvegicus with 12 samples.

Results

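Core myelin structural protein genes of the central nervous system were followed in bulk RNA-seq counts of primary rat oligodendrocyte precursor cells (OPCs). The 9 genes, Mbp, Mog, Mag, Cnp, Mobp, Opalin, Cldn11, Mal and Omg, were chosen by symbol among the 30562 genes of the deposited table, and each symbol had 1 row there. The rule used no measured value, although results of these data were known when the genes were proposed.

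The libraries came from wild-type (WT) Sprague-Dawley rat OPCs, isolated by the authors from cerebral cortex at postnatal day 1 or 2 and freed of microglia and most astrocytes by shaking and by selective adhesion. The cells were grown with FGF-2 and PDGF-AA, growth factors that keep OPCs dividing. Mild-hypo-OPCs were kept at an inspired oxygen fraction (FiO2) of 5% (6 libraries) and standard OPCs in room air (6 libraries), and the study asked whether mild hypoxic preconditioning moves OPCs toward maturation. The library labels give an exposure of 6 hours, whereas the methods of the study give 6 days for mild hypoxia. Which of these holds for the libraries could not be settled here. The study states fewer biological replicates per group for its RNA-seq than the number of libraries deposited, and the labels name no culture or animal, so some libraries may share a culture. Here n = 6 counts libraries, and the p-values measure the spread between these libraries, which may in part be technical.

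Myelin is a multilayered extension of the oligodendrocyte membrane wound around axons. MBP draws the cytoplasmic faces of the membrane together, CNP keeps cytoplasmic channels open between them, claudin 11 forms the tight junctions between the turns, and MAG, MOG and OMG are surface glycoproteins. Their genes are weakly expressed in OPCs and rise as the cells differentiate, and Myrf, Sox10 and Olig2 are among the transcription factors that drive this program. Mog, Mal and Opalin are known as genes of late, mature oligodendrocytes.

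The OPC label was set beside markers, whose presence in bulk RNA does not settle what each cell is. The study found its cultures close to OPCs in vivo, with signs in some cells of commitment and new oligodendrocyte formation. Of 12 OPC markers in the table, 12 passed the filter on low counts, and Pdgfra, the receptor for PDGF-AA, averaged 236 CPM (counts scaled to a common library total) in mild-hypo-OPCs and 229 CPM in standard OPCs. Summed over the list, the mild-hypo-OPC libraries ranged from 4138 to 4777 CPM and the standard-OPC libraries from 3477 to 4344 CPM. Premyelinating markers, which share Gpr17 (1324 and 967 CPM on average) with this list, summed to 8096 to 9245 CPM and 7260 to 9189 CPM. In the same order of groups, summed microglial markers were at 76.4 to 101 and 43.3 to 78.2 CPM, astrocyte markers at 869 to 1014 and 829 to 921 CPM, and neuronal markers at 474 to 531 and 428 to 513 CPM. In bulk RNA, fewer cells of a type and less RNA per cell cannot be told apart.

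Sequencing depth separated the groups. The mild-hypo-OPC libraries held 4111669 to 9022324 counts each, against 1356079 to 2797513 for the standard-OPC libraries, so that every mild-hypo-OPC library was deeper than every standard-OPC library. The share of counts in ribosomal RNA genes was 17.4% to 25.2% with 5% FiO2, against 23.9% to 38.4% in room air. Standard-OPC replicate 1 had the highest depth and the lowest ribosomal share of its group, and standard-OPC replicate 4 the lowest depth and the highest ribosomal share. These are given beside the results they touch.

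The data bear most clearly on Cldn11, Mag and Cnp. The 250 bases upstream of their RefSeq transcription starts are shown on the GRCr8 assembly, because all 3 windows hold a core recognized by MYRF, the transcription factor that drives myelin genes, and because these were the members called higher below. Capitals mark that core, CTGGCAC or CTGGTAC on either strand. The Mag window is chr1:95291045-95291294 (minus strand), the Cnp window chr10:86011254-86011503 (plus strand) and the Cldn11 window chr2:114149540-114149789 (minus strand), each written 5′ to 3′ along its gene.
Mag: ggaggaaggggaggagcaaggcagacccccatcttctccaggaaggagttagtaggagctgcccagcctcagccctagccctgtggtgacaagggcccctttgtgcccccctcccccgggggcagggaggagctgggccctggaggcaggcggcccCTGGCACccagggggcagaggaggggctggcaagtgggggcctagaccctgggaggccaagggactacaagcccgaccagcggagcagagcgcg
Cnp: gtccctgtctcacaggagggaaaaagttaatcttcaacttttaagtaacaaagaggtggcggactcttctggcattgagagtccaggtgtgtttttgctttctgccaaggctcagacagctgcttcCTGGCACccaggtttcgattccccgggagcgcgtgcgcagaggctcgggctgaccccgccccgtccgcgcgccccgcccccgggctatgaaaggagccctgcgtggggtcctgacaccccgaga
Cldn11: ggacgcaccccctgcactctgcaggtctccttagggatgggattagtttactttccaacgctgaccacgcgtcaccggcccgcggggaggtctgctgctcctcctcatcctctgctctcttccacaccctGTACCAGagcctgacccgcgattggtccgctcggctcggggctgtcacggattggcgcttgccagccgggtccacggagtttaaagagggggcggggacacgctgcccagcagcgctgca
The core lies 94 bases upstream of the start in Mag, 124 in Cnp and 120 in Cldn11, counted at its first base. Mag and Cnp share the run cCTGGCACccagg of 13 bases around it, whereas Cldn11 holds the other spelling on the opposite strand. Among the 8 members with a promoter entry the core is in 5, the others being Mal (126 bases upstream) and Opalin (17 bases upstream), and it is not in the windows of Mbp, Mobp or Omg. Mog had no entry. Of 33469 RefSeq promoter windows of this length, 5.48% hold the core, and of the 7870 windows of tested genes, 5.36% do. The letters were chosen with the sequences in view, so these counts are a description, and a match is not a binding site.

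The shared hypoxia response core, ACGTG or GCGTG on either strand, was found in the windows of Mbp, Cnp, Opalin and Cldn11. Of the Mbp promoter entries, that starting at position 78130402 held 2 matches and that starting at 78209995 held 0. It is common in such windows: 36.7% of all promoter windows and 57.6% of those of tested genes hold it.

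As a whole, the myelin protein genes took a larger part of the counts in mild-hypo-OPCs. The 9 genes together made up 1.05% to 1.32% of all counts there (median 1.21%), compared with 0.537% to 0.942% for standard OPCs (median 0.740%), without overlap between the groups. This share is not adjusted for the differing ribosomal share. Most tested genes were higher on such a basis. With library size as the only scaling, the edgeR test described below called 5515 of 8938 tested genes higher. The median log2 fold change of all tested genes was then 0.43. After TMM scaling, described below, the summed levels overlapped, at 9867 to 11307 CPM with mild hypoxia and 6705 to 10078 CPM in room air. Mbp alone carried 66.9% to 69.2% of the counts of the 9 genes with mild hypoxia, compared with 67.2% to 69.9% in room air, so that its part of the family did not separate the groups.

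Levels per gene are given as normalized CPM, that is, CPM scaled by TMM factors, which correct for a few genes taking up much of a library. Of the 9 genes, 7 passed the filter of more than 10 CPM in at least 1 library. By edgeR's quasi-likelihood test with Benjamini-Hochberg adjustment, 3 of the 7 were higher in mild-hypo-OPCs (Cldn11, Mag and Cnp) and 0 were lower. At an unadjusted p under 0.05, and with limma-voom or DESeq2, 4 were higher, the added gene being Mbp, and 0 were lower. Over all 8938 tested genes, 24.0% were called, 7.00% higher and 17.0% lower. All 7 fitted fold changes were above 0 on the log2 scale, with a median of 0.28, whereas the median of all tested genes was -0.003.

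**Figure D1:**
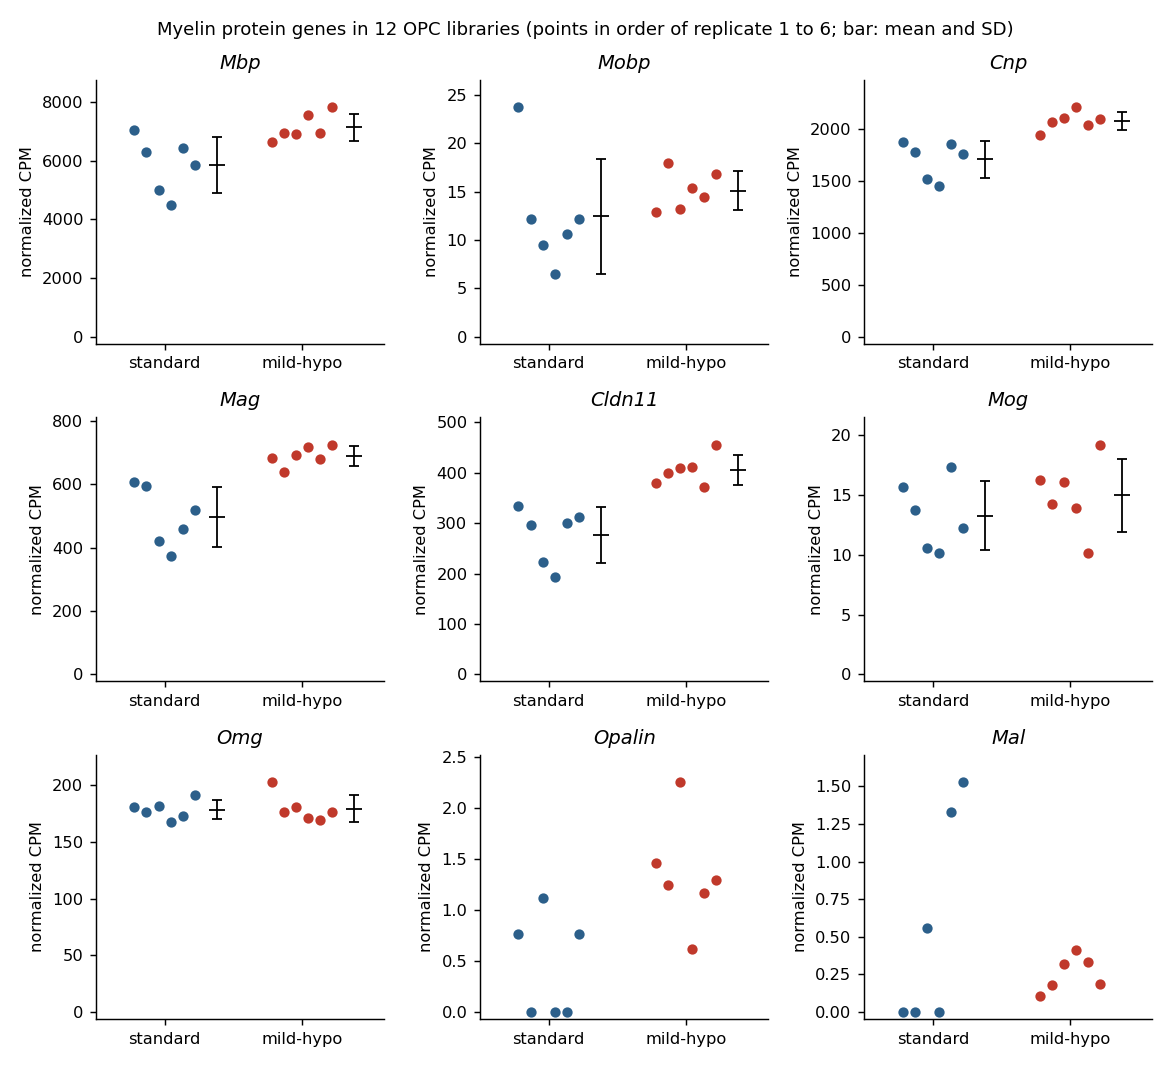
Normalized CPM (y axis, linear) of the 9 genes in each standard-OPC (blue) and mild-hypo-OPC (red) library, in order of replicate 1 to 6, with the mean and SD beside the points except for Opalin and Mal, which had too few counts. For Cldn11, Mag and Cnp the red points all lie above the blue ones, while Mbp overlaps through standard-OPC replicate 1 and Omg lies at about the same level in both groups.

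Mbp encodes myelin basic protein, the adhesive of compact myelin, and its mRNA is carried into the processes before it is translated. The lowest, median and highest normalized levels were 6633, 6938 and 7820 CPM in mild-hypo-OPCs and 4504, 6061 and 7040 CPM in standard OPCs. The groups overlapped only because standard-OPC replicate 1, at 7040 CPM, exceeded 4 of the mild-hypo-OPC libraries. The means were 7132 ± 454 CPM and 5851 ± 950 CPM (SD, n = 6 each), and the log2 fold change of 0.29 (standard error 0.11) missed the threshold, with an adjusted p of 0.0555 from edgeR. The choice of method decided this call: limma-voom gave 0.0252 and DESeq2 0.0209, and edgeR without standard-OPC replicate 1 gave 0.0152. Counts were summed per gene, so the transcripts of Mbp, including those from its far upstream start, were not separated.

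Mobp encodes a small basic protein of compact myelin. Mild-hypo-OPC libraries held 75 to 124 counts of it, against 7 to 62 for the standard-OPC libraries. The lowest, median and highest levels were 12.9, 14.9 and 17.9 CPM against 6.44, 11.4 and 23.7 CPM, and the highest value of all 12 libraries belonged to standard-OPC replicate 1. The 5 other standard-OPC libraries lay below every mild-hypo-OPC library. With all libraries the log2 fold change was 0.16 (standard error 0.21, edgeR adjusted p = 0.619), and without standard-OPC replicate 1 it was 0.53 (edgeR adjusted p = 0.0326). Without standard-OPC replicates 1 and 4 it was 0.43 (edgeR adjusted p = 0.0863), and with replicates 4 to 6 only it was 0.64 (edgeR adjusted p = 0.0917). With all libraries and library size as the only scaling, Mobp was called higher (edgeR adjusted p = 0.0216). The call of this gene thus depended on the libraries included and on the scaling.

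Cnp encodes the cyclic nucleotide phosphodiesterase of non-compact myelin, an early gene of the oligodendrocyte lineage. Its levels were 1939, 2081 and 2206 CPM (lowest, median and highest) in mild-hypo-OPCs and 1450, 1767 and 1875 CPM in standard OPCs. All mild-hypo-OPC libraries were above all standard-OPC libraries, which was also so for 2.94% of all tested genes. The difference was small, 2075 ± 87.8 against 1705 ± 177 CPM (SD, n = 6 each), or 0.28 on the log2 scale (standard error 0.08, edgeR adjusted p = 0.0177).

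Cldn11 encodes claudin 11, which seals the turns of the sheath. Levels were 372, 405 and 455 CPM in mild-hypo-OPCs and 193, 298 and 334 CPM in standard OPCs, again without overlap. The means of 405 ± 29.6 and 277 ± 55.2 CPM (SD, n = 6 each) gave the largest log2 fold change among the tested members, 0.54 (standard error 0.11, edgeR adjusted p = 0.00155). It exceeded the fold changes of 98.1% of tested genes.

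Mag encodes the myelin-associated glycoprotein, which sits in the innermost membrane facing the axon. Its levels were 638, 687 and 725 CPM in mild-hypo-OPCs and 374, 490 and 608 CPM in standard OPCs, and these groups did not overlap either. On the log2 scale the difference was 0.47 (standard error 0.10, edgeR adjusted p = 0.00295), from means of 689 ± 31.0 and 496 ± 94.4 CPM (SD, n = 6 each).

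Mog encodes the oligodendrocyte glycoprotein of the outermost myelin surface. It rested on few counts, 61 to 156 per library with mild hypoxia against 11 to 41 in room air. The lowest, median and highest levels of 10.1, 15.1 and 19.2 CPM and of 10.1, 13.0 and 17.3 CPM overlapped almost entirely. The log2 fold change of 0.15 (standard error 0.17) was not called by edgeR (adjusted p = 0.578). Mog overlaps Zfp57 in the GRCr8 annotation, and Zfp57 had a log2 fold change of 0.50 (edgeR adjusted p = 0.123).

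Omg encodes a lipid-anchored surface glycoprotein that binds the Nogo receptor and that neurons make as well. It had almost the same level in both groups: 170, 176 and 202 CPM in mild-hypo-OPCs and 167, 178 and 192 CPM in standard OPCs. The log2 fold change was 0.01 (standard error 0.07, edgeR adjusted p = 0.949), the smallest among the tested members. Omg lies within Nf1, and it also overlaps Faul2. Nf1 had a log2 fold change of -0.31 and was not called (edgeR adjusted p = 0.0808). The library kit was strand-specific, but whether the counting used strand is not given in the sources used here, so the reads of overlapping genes may not be fully separated.

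Opalin, a transmembrane glycoprotein of mature oligodendrocytes, did not pass the filter. Mild-hypo-OPC libraries held 3 to 14 counts of it, and the standard-OPC libraries 0 to 2, with 3 of the latter at 0. Summed over the libraries this was 52 counts, or 1.57 CPM of all counts (95% exact Poisson interval 1.17 to 2.06), against 5 counts, or 0.420 CPM (0.136 to 0.979). The intervals do not overlap, but they cover counting error only and are not scaled by TMM factors. In normalized CPM the libraries overlapped, at 0.615 to 2.25 CPM in mild-hypo-OPCs and 0 to 1.11 CPM in standard OPCs. With no filter, edgeR's quasi-likelihood test gave Opalin an adjusted p of 0.132 at a log2 fold change of 1.46 (standard error 0.64), so it was not called.

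Mal, a raft-associated proteolipid of late myelin, was at the limit of detection, with 1 to 2 counts in each library of the mildly hypoxic cells against 0 to 2 in room air. The sums of 9 and 5 counts came to 0.271 CPM (0.124 to 0.515) and 0.420 CPM (0.136 to 0.979), also without TMM scaling. These intervals overlap, so no difference was detectable at this depth.

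The libraries differed more among standard OPCs than among mild-hypo-OPCs for the strongly expressed members. The coefficient of variation of Mag was 4.50% in mild-hypo-OPCs and 19.0% in standard OPCs, that of Cldn11 7.31% and 20.0%, that of Cnp 4.23% and 10.4% and that of Mbp 6.36% and 16.2%. Omg showed the opposite order, 6.67% and 4.65%. Standard-OPC replicate 4 was the lowest library of its group for 7 of the 7 tested members, and replicate 1 was the highest for 5 of them.

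Among standard OPCs this order ran with the ribosomal share. From replicate 1 (23.9% ribosomal RNA) through replicates 5, 2, 6 and 3 to replicate 4 (38.4%), Mbp read 7040, 6449, 6281, 5841, 4991 and 4504 CPM. Cnp followed the same order, from 1875 through 1851, 1775, 1760 and 1521 to 1450 CPM. Cldn11 and Mag followed it less strictly, with replicate 5 lying below replicate 6 in both. Among mild-hypo-OPCs, Mbp and Cnp were lowest in replicate 1 (25.2%), at 6633 and 1939 CPM. They read 7558 and 2206 CPM in replicate 4 (17.4%). Cldn11 and Mag were lowest there in replicates 5 (18.5%) and 2 (20.6%), respectively. At nearly the same ribosomal share, mild-hypo-OPC replicate 1 (25.2%) and standard-OPC replicate 5 (25.3%) had 6633 and 6449 CPM of Mbp, 1939 and 1851 CPM of Cnp, 379 and 301 CPM of Cldn11, and 683 and 459 CPM of Mag. In this pair Mbp, Cnp and Cldn11 lay closer than the group means did, and Mag did not. Mild-hypo-OPC replicate 3 (22.8%) and standard-OPC replicate 1 (23.9%) had 6905 and 7040 CPM of Mbp and 2105 and 1875 CPM of Cnp. They had 410 and 334 CPM of Cldn11 and 691 and 608 CPM of Mag. There each of these genes, Mag included, lay closer than the group means. Which genes lay closer thus depended on the pair of libraries.

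**Figure D2:**
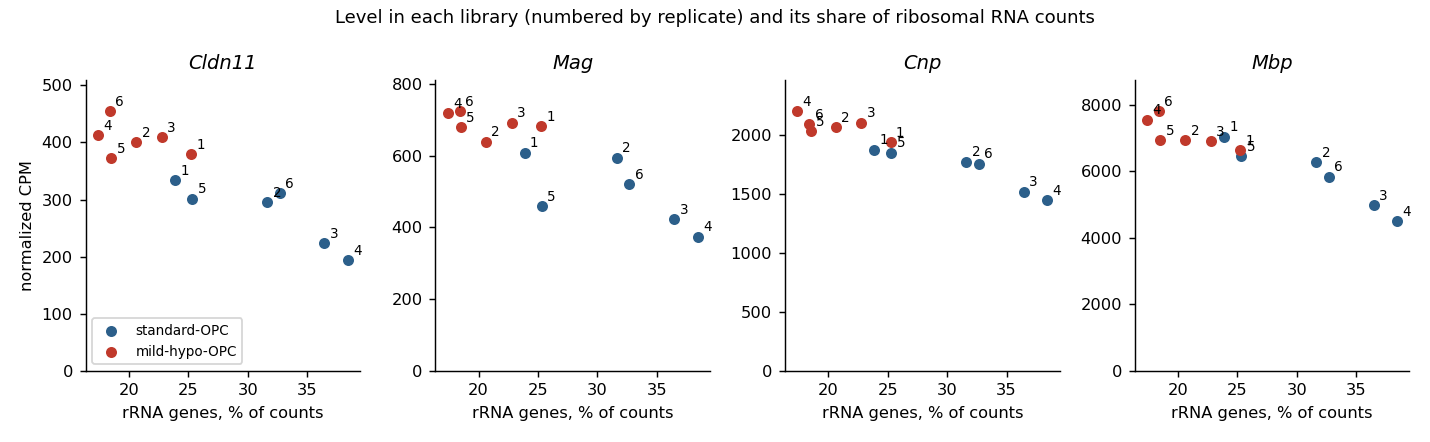
Normalized CPM (y axis, linear) of Cldn11, Mag, Cnp and Mbp against the percent of counts in ribosomal RNA genes (x axis), with each library as a point numbered by replicate, standard OPCs in blue and mild-hypo-OPCs in red. In each panel the standard-OPC libraries fall from replicate 1 at 23.9% to replicate 4 at 38.4%, and the groups share only a narrow range of ribosomal shares.

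When the ribosomal share was added to the fit as a covariate, 0 members were called higher by edgeR, and 0 had an unadjusted p under 0.05. Cldn11 then had a log2 fold change of 0.17 (adjusted p = 0.511), Mag 0.19 (adjusted p = 0.455), Cnp 0.05 (adjusted p = 0.823) and Mbp -0.09 (adjusted p = 0.648). With the log2 total count as a covariate, 0 members were called either, adjusted or not, and Cldn11, Mag and Cnp had 0.42, 0.16 and 0.26 (edgeR adjusted p = 0.689, 0.929 and 0.796). Since total counts separate the groups completely, depth and condition cannot be told apart. After 1 random thinning of every library to the smallest total, the 3 genes were still called, with log2 fold changes of 0.56, 0.49 and 0.36 (edgeR adjusted p = 0.00887, 0.00366 and 0.0154). Leaving the ribosomal RNA genes out of the table kept the calls of Cldn11, Mag and Cnp and added Mbp (edgeR adjusted p = 0.0343).

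Without standard-OPC replicates 1 and 4, at both ends of the ribosomal shares of their group, Cldn11, Mag and Cnp were still called. Mbp then had an edgeR adjusted p of 0.0498. The remaining standard-OPC libraries, from 25.3% ribosomal RNA upward, all lay above the highest mild-hypo-OPC library (25.2%). This omission therefore cannot separate the ribosomal share from the condition.

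The members were also set against Mbp inside each library, a measure that needs no scaling between libraries. Cldn11 had 5.68 ± 0.220 reads per 100 Mbp reads in mild-hypo-OPCs and 4.70 ± 0.352 in standard OPCs (SD, n = 6 each), with ranges of 5.36 to 5.93 and 4.29 to 5.33. Thus all mild-hypo-OPC libraries were above all standard-OPC libraries, as for 0.201% of all tested genes set against Mbp in this way. Mbp itself had a fold change above those of 88.5% of tested genes, so fewer genes rise against it. In normalized CPM the same separation held for 2.94% of tested genes. Mag had 9.68 ± 0.433 against 8.48 ± 0.780, with 4 of 6 mild-hypo-OPC libraries above every standard-OPC library. Cnp had nearly the same proportion to Mbp in both groups, 29.1 ± 1.26 against 29.4 ± 1.95. Omg stood lower relative to Mbp, at 2.53 ± 0.294 against 3.11 ± 0.500, and 4 of 6 mild-hypo-OPC libraries lay below every standard-OPC library. These ratios were not tested.

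**Figure D3:**
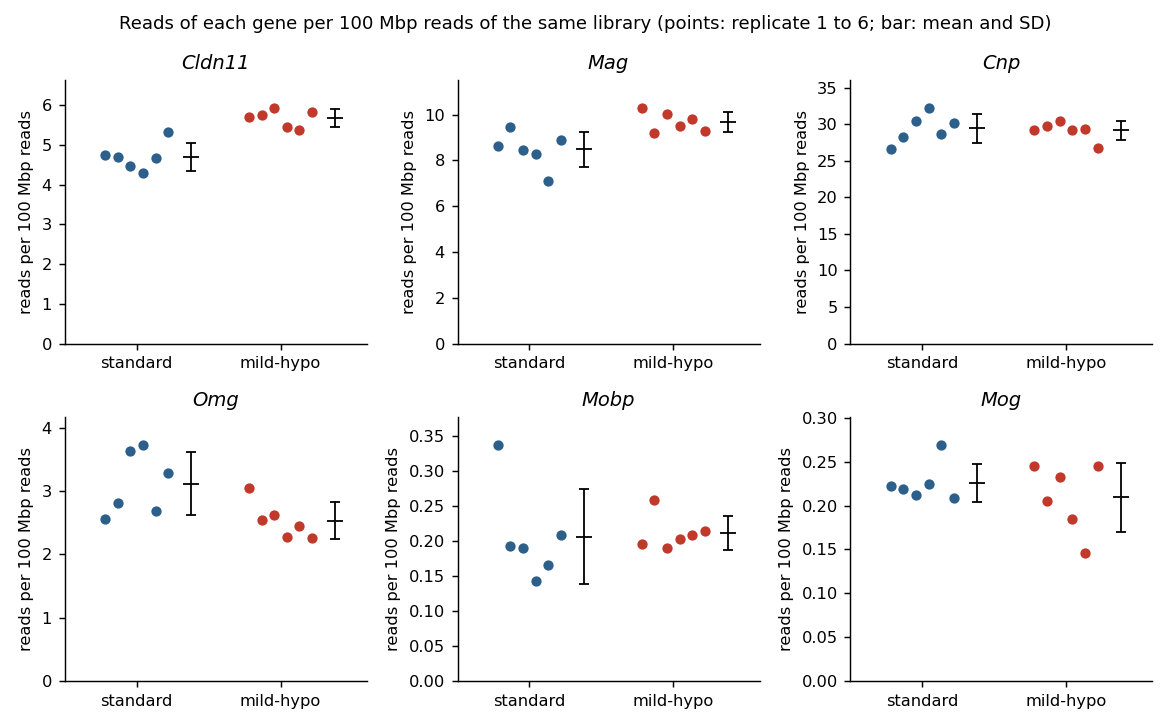
Reads of 6 members per 100 Mbp reads of the same library (y axis, linear, from 0) in standard OPCs (blue) and mild-hypo-OPCs (red), replicate 1 to 6 from left to right, with mean and SD. Cldn11 separates the groups, from 4.29 to 5.33 in standard OPCs and from 5.36 to 5.93 in mild-hypo-OPCs, while Cnp lies near 29 in both.

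The members moved together across libraries. After the mean of each group was removed, the log2 level of Cldn11 correlated with the mean of the other tested members at r = 0.961 over 12 libraries, Mbp at 0.910, Mag at 0.846, Cnp at 0.837, Mobp at 0.789 and Mog at 0.652, whereas Omg gave 0.159. The libraries also share their depth and ribosomal share along this axis, and these values are given as a description. Of the other genes, the closest in pattern were Vamp1 (r = 0.971), Ubl7 (0.958), Bbof1 (0.950), Naa60 (0.946), Gpbp1l1 (0.937), Phlda3 (0.928), Chtopl1 (0.928), Shisa4 (0.926), Dynll2 (0.925) and an unnamed gene, ENSRNOG00000068496 (0.922). Vamp1 encodes a vesicle fusion protein and Dynll2 a dynein light chain. Without standard-OPC replicates 1 and 4, the 2 libraries farthest from the median, r ranged from 0.718 for Chtopl1 to 0.924 for Vamp1 among the 10 genes, with Dynll2 at 0.815. The r values of the members were not recalculated without these 2 libraries. Dynll2 was itself called higher, with a log2 fold change of 0.31 (edgeR adjusted p = 0.0165), and Vamp1, with 0.10, was not (edgeR adjusted p = 0.607). Bbof1 and ENSRNOG00000068496, at mean levels of 3.49 and 8.14 CPM, were called lower. Their log2 fold changes were -1.44 and -2.05 (edgeR adjusted p = 0.0473 and 0.000458). The others of these genes were not called.

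Other genes of myelin proteins did not move as a block. Of 30 examined, 22 passed the filter, and 2 were called higher and 2 lower, with a median log2 fold change of 0.15. Of all tested genes, 24.0% were called. The higher genes were Nectin1, a cell adhesion molecule, with 0.60 (edgeR adjusted p = 0.00506), and Gjc3, a connexin of myelinating glia, with 0.53 (0.00130). The tetraspanin gene Cd9 fell by 0.60 on the log2 scale (edgeR adjusted p = 0.00122) and Cmtm5 by 0.31 (0.0276). Sirt2, Nfasc and Gpm6b, the most strongly expressed of those not called, had -0.01, 0.20 and 0.06.

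**Figure D4:**
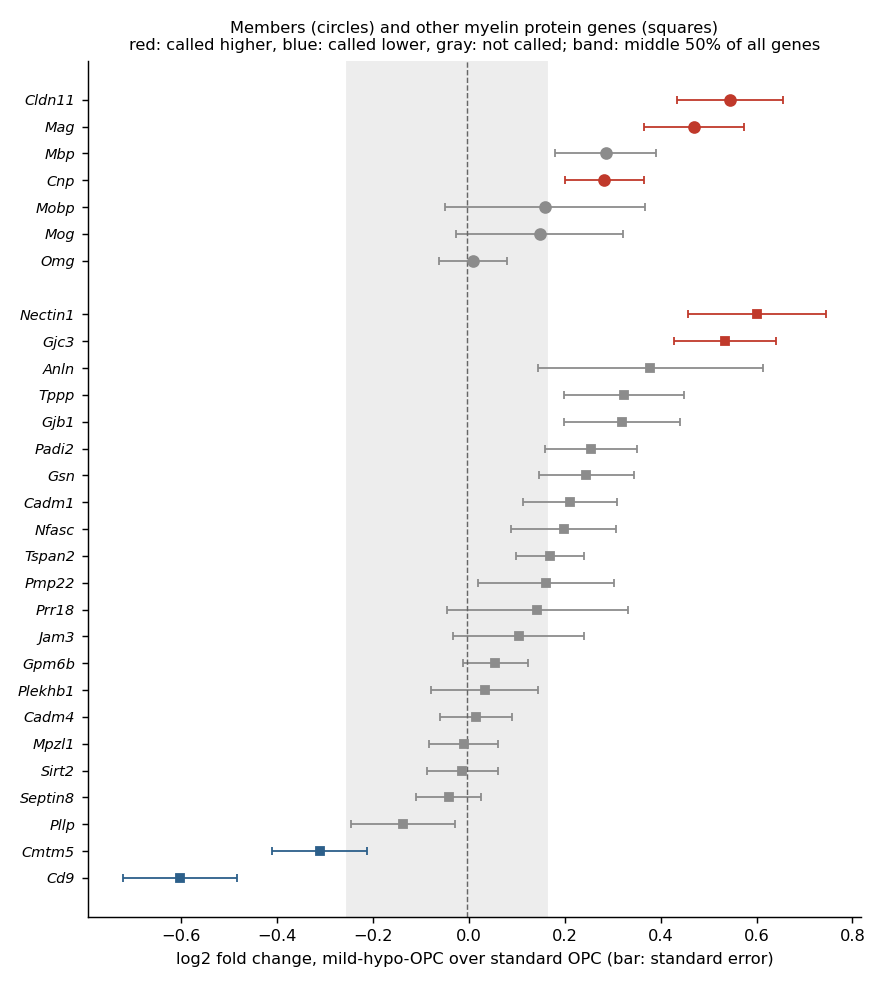
Log2 fold change (x axis, mild-hypo-OPC over standard OPC, with standard errors) of the 7 tested members (circles) and 22 other myelin protein genes (squares), colored red where called higher, blue where called lower and gray where not called. The gray band holds the middle quartiles of all tested genes around their median, and Cldn11, Mag, Nectin1 and Gjc3 lie farthest to its right while Cd9 lies farthest to its left.

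Regulators of these genes were called in both directions, at a share near that of all genes. Of 20 tested regulators, 3 were higher and 2 lower (median log2 fold change 0.08), beside 24.0% of all tested genes called. The higher ones were Myrf with 0.38 (edgeR adjusted p = 0.0441), Zfp488, a transcriptional regulator of oligodendrocyte differentiation, with 0.29 (0.0132), and Nkx2-2, a homeodomain factor of the lineage, with 0.20 (0.0486). Id2, an inhibitor of basic helix-loop-helix factors, fell from 96.5 ± 14.9 to 50.2 ± 2.77 CPM (SD, n = 6 each), a log2 fold change of -0.93 (edgeR adjusted p = 3.8e-05). Chd7, a chromatin remodeler, fell by 0.51 on the log2 scale (edgeR adjusted p = 0.0336). Olig1, Sox10 and Olig2, the most strongly expressed of those not called, had 0.02, 0.23 and 0.08.

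Most genes that carry or hold back Mbp mRNA were not called. Of 12 tested, edgeR called 0 higher and 1 lower, the dynein heavy chain gene Dync1h1, with -0.38 (edgeR adjusted p = 0.0336). Over all tested genes, 7.00% were higher and 17.0% lower. Qki, Fyn and Ywhaz had 0.06, 0.07 and -0.08.

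Receptors and partners of MAG and OMG were sparsely expressed, and 4 of 9 passed the filter. Of these 4, 2 were called higher and 1 lower, beside 24.0% of all tested genes called. Lingo1, a part of the Nogo receptor complex, rose by 0.43 on the log2 scale (edgeR adjusted p = 0.000997), and Rtn4, the gene of Nogo itself, by 0.25 (0.0219). Lrp1, a scavenger receptor that also binds MAG, fell by 0.68 on the log2 scale (edgeR adjusted p = 0.000558).

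Markers of neighbouring stages gave a mixed picture, to be read beside the 24.0% of all tested genes called. Among 12 OPC markers, Gpr17 (0.45, edgeR adjusted p = 0.000842) and Neu4 (0.38, adjusted p = 0.0416) were higher and Pcdh15 (-0.49, adjusted p = 0.00548) lower, with Pdgfra at 0.05. Of 13 premyelinating markers, edgeR called 1 higher, again Gpr17, and 0 lower. Their median log2 fold change was 0.00, and Bcas1 and Enpp6 had -0.03 and 0.20. Of 7 tested hypoxia targets, P4ha1, a collagen prolyl hydroxylase, was higher with 0.47 and Bnip3, a mitophagy receptor, lower with -0.69, and the other 5 were not called by edgeR.

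Markers of other cells moved as well: 3 of 7 tested microglial markers were called higher and 1 lower, and of 8 tested astrocyte markers Aqp4 (0.79) and Slc1a3 (0.25) were higher and S100b (-0.46) lower. Of 7 tested neuronal markers 1 was called in each direction, of 2 tested Schwann cell markers Pmp2 (-0.50) was lower, and the only tested mesenchymal or endothelial marker was called higher. Lum and Cdh5 of the last list had no count in any library. These calls stand beside 24.0% of all tested genes called, 7.00% higher and 17.0% lower. The median log2 fold change was 0.61 for the tested microglial, 0.27 for the neuronal, 0.05 for the astrocyte and -0.14 for the Schwann cell markers. That of the tested members was 0.28. The part of such other cells in the results on the members was not tested.

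**Figure D5:**
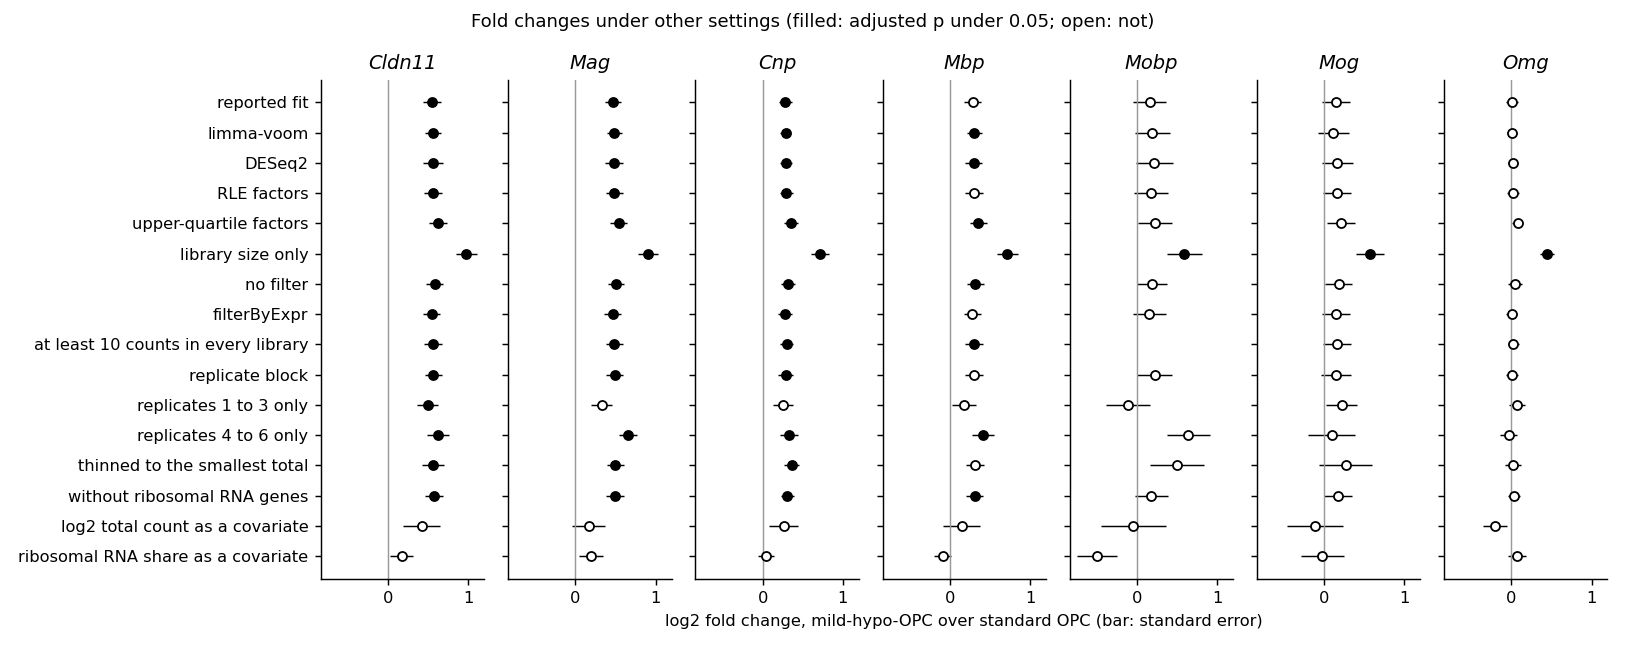
Log2 fold change (x axis, with standard errors) of the 7 tested members in the reported fit and under 15 other settings (rows), filled where the adjusted p was under 0.05 and open where it was not. Cldn11, Mag and Cnp are filled in most rows and open with either covariate, and the row for library size only is shifted to the right by 0.43, the median of all genes under that setting.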

How the data were processed

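Per the submitters' processing notes and the methods of the study, the authors trimmed reads with Trimmomatic 0.36, checked them with FastQC 0.11.9, aligned them to mRatBN7.2 with STAR 2.7.9a and ran RSEM 1.3.3 for gene quantification. The deposited values are raw counts, whole numbers with no scaling, for Ensembl genes. How RSEM's estimates were made whole is not given in the sources used here. Of 30562 genes, 13171 had no count.

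From these counts, genes above 10 CPM in at least 1 library were kept (8938 genes), scaled by TMM and fitted with glmQLFit and glmQLFTest in edgeR 4.0.16 (R 4.3.3), comparing the conditions without further terms, at a Benjamini-Hochberg adjusted p of 0.05. Standard errors are those implied by the F statistic. The study's limma test (limma 3.58.1, voom) and DESeq2 1.42.0 were alternatives, and the test was checked on simulated counts. Correlations used log2 CPM with a prior count of 2. Every pair of libraries within a group differed by more than counting error (chi-square per degree of freedom at least 3.97). This does not tell whether libraries share a culture or an RNA sample.

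Members and gene lists were chosen with earlier results of these data known. Named were all members, genes overlapping them, up to 4 called genes per direction and 3 uncalled genes of highest level in the lists on myelin, its regulators and the OPC lineage, and the 10 genes most alike in pattern. Some genes of the myelin and Schwann cell lists are not reported here. Motifs were searched in RefSeq GRCr8 promoters, matched by symbol.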

Additional observations from a re-analysis of the deposited data

Results flagged for a closer look

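In 14 groups of 6 libraries (7 tested members in each condition), 2 held a library that stood apart by Dixon's test, and chance gives about 1 in 20 such groups. Mobp in standard-OPC replicate 1 was at 23.7 CPM, with a gap to the next library of its group that made up 0.666 of the group's range (critical value 0.625). This library had the highest total count of its group and the lowest ribosomal share. Omg in mild-hypo-OPC replicate 1 was at 202 CPM, with a gap of 0.670 of the range. That library was the deepest of all 12, with 9022324 counts.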

How the results depend on the processing

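Over 28 alternatives (27 for Mobp, which had fewer than 10 counts in a library), Cldn11 was called higher in 26, Mag in 25, Cnp in 25 and Mbp in 11. Leaving out single libraries gave 436 to 823 genes higher and 1165 to 1664 lower, 3 to 5 members higher (5 without standard-OPC replicate 1), and Omg between -0.0078 and 0.054. Higher and lower genes, reported as 626 and 1520, numbered 1136 and 1255 with upper-quartile scaling, 5515 and 405 with library size only (7 members higher, median of all genes 0.43), 53 and 343 with replicates 1 to 3 (1 member, Cldn11), 178 and 614 after 1 random thinning to the smallest total, 0 and 43 with total count as a covariate (217 higher at an unadjusted edgeR p under 0.05) and 23 and 173 with the ribosomal share as a covariate (0 members in both). Directions turned for Mog (-0.11 with total count, -0.023 with ribosomal share), Mobp (-0.11 with replicates 1 to 3, -0.046 with total count, -0.50 with ribosomal share), Mbp (-0.089 with ribosomal share) and Omg (-0.034 with replicates 4 to 6, -0.20 with total count, -0.0081 without standard-OPC replicates 1 and 4), none past the threshold. The causes of these shifts were not tested. Replicates 4 to 6, a subset of the same size as replicates 1 to 3, gave 569 higher and 1381 lower genes. In that subset 4 members were called higher, with Mbp at an edgeR adjusted p of 0.0322. With replicates 1 to 3, Mag and Cnp were not called (edgeR adjusted p = 0.193 and 0.261). The replicate block gave 572 higher and 1471 lower genes, 3 members higher and an edgeR adjusted p of 0.0626 for Mbp, and changed no call of a member. Same-numbered libraries correlated at -0.28 to 0.30, and 1 of 6 numbers correlated best with itself, so the numbers were not taken as pairs. The ribosomal covariate and the omission of standard-OPC replicates 1 and 4 were chosen after seeing the data. Depth limits Opalin and Mal most.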
